A study of Mus musculus with 42 samples.

Results

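Immunoglobulin variable (V) segments are the germline gene pieces that encode most of the antigen-binding part of an antibody chain. They were taken as every row of the deposited gene table whose biotype was IG_V_gene, which gave 218 of 54532 genes. By gene name 113 were heavy chain segments (Ighv), 100 were kappa light chain segments (Igkv), 3 were lambda light chain segments (Iglv) and 2 carried no such prefix (Gm43218 and Gm42543, on chromosome 6). The Ighv segments lay on chromosome 12 between 113578504 and 116000461, all on the minus strand (mm10). The Igkv segments lay on chromosome 6 between 67555497 and 70704177, 38 of them on the plus strand, and the Iglv segments lay on chromosome 16 between 19085017 and 19260859. No read was recovered in any library for 7 segments (Ighv7-2, Ighv8-9, Ighv1-24, Ighv1-16, Ighv16-1, Igkv1-35 and Gm42543), and 211 had at least 1 read.

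RNA was sequenced from lungs of wild-type C57BL/6J mice kept in 2 ways, named SD and Ctrl in the labels. SD mice were held in SD cages and Ctrl mice in home cages, both for 20 h per day on 2 days between clock hour 14 and clock hour 10. Lungs were then taken every 4 h from clock hour 8 (lights on, ZT0) to ZT24, so that each condition had 7 times and each of the 14 groups had 3 libraries, 42 in all. The series title names circadian disruption by sleep deficiency. The labels name the 3 libraries of a group as separate biological samples, with no word on whether a sample is 1 animal or a pool of several. Recovered depth was 25285525 to 29790252 reads per library. The lung epithelial gene Sftpc (surfactant protein C) stood between 15578 and 22712 FPKM in the group means, as the tissue label says.

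Each developing B cell joins 1 V segment to D and J segments for the heavy chain and 1 V to a J segment for the light chain, and the pair of joined chains sets what its antibody binds. A clone that expands carries the same segments in all its cells, and plasma cells, which secrete antibody, hold far more immunoglobulin RNA per cell than other B cells. The segments seen in bulk RNA therefore weigh plasma cell clones heavily, and expanded clones arise separately in each animal. In bulk RNA, fewer cells of a type and less RNA per cell cannot be told apart.

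All 218 segments were matched by gene ID to GENCODE M21 transcripts on the same coordinates. Related segments are close in sequence: the median identity of a coding sequence to its nearest other member was 94.6% for Ighv and 94.4% for Igkv. 51 Ighv and 46 Igkv segments had a relative at 95% identity or more. Of the 50-base windows in a transcript, a median of 78.1% (Ighv) and 74.8% (Igkv) occurred in no other of the 376 immunoglobulin V genes and pseudogenes, and of the 100-base windows a median of 100% in both loci. How reads that match several segments were counted is not given in the sources used here, so the split of reads between close relatives is uncertain.

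The leading Ighv and Igkv segments of the high Ctrl groups, Ighv14-3, which led Ctrl ZT4, and Iglv1 with its near copy Iglv2 are shown by their last 150 coding bases, the end of the segment that is joined to D or J, so that near copies can be set side by side. Capitals mark bases that differ from the nearest other member, which was Ighv14-1 for Ighv14-3, Ighv5-4 for Ighv5-6, Ighv5-12 for Ighv5-16, Ighv1-53 for Ighv1-64, Igkv8-30 for Igkv8-24, Igkv4-78 for Igkv4-57-1, and the other of the pair for Igkv1-110 with Igkv1-117 and for Iglv1 with Iglv2. Sequences are from GENCODE M21 transcripts (mm10), 5′ to 3′ on the coding strand.
Ighv14-3: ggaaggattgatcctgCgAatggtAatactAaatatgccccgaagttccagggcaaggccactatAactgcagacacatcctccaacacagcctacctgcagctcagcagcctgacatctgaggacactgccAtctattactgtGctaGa
Ighv5-6: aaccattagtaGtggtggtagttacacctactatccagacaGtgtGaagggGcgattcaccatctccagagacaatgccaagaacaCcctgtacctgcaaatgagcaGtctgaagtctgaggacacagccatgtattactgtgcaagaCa
Ighv5-16: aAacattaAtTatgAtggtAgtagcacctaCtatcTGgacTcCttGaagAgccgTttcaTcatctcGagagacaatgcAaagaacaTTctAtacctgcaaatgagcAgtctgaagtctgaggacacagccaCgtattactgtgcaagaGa
Ighv1-64: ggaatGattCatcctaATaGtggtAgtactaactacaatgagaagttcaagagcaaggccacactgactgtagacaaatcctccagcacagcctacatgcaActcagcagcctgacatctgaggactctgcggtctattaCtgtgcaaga
Igkv8-24: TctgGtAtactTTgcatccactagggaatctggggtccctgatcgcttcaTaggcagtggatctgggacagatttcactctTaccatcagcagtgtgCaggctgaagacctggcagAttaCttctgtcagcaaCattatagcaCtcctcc
Igkv4-57-1: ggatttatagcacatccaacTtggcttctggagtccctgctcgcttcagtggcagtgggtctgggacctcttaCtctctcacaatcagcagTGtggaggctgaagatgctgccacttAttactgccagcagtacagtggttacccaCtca
Igkv1-110: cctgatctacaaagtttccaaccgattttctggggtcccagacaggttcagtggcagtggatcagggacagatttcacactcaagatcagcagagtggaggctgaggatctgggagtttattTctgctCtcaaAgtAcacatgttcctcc
Igkv1-117: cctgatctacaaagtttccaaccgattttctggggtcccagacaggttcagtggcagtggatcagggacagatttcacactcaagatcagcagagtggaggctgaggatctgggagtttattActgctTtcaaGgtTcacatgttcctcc
Iglv1: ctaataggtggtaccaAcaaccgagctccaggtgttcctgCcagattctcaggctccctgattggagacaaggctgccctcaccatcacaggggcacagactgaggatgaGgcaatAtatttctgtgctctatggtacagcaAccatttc
Iglv2: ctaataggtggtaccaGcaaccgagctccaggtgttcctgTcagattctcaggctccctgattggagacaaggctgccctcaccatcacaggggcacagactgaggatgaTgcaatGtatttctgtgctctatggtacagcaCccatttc
Igkv1-110 and Igkv1-117 differed at 4 of these 150 bases and were 97.2% identical over the whole coding sequence, and Iglv1 and Iglv2 differed at 5 and were 96.9% identical. Ighv5-16 stood farthest from its nearest relative, at 85.8%. The genes lie at chr12:114059845-114060321 (Ighv14-3), chr12:113625506-113625956 (Ighv5-6), chr12:113838526-113839010 (Ighv5-16), chr12:115507545-115508031 (Ighv1-64), chr6:70216858-70217421 (Igkv8-24), chr6:69544359-69544907 (Igkv4-57-1), chr16:19085017-19085500 (Iglv1) and chr16:19260401-19260859 (Iglv2), all on the minus strand. Igkv1-110 at chr6:68270485-68271267 and Igkv1-117 at chr6:68121046-68121827 lie on the plus strand.

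The libraries of a group shared their leading segments to a degree that is given here before the comparisons, since it bears on what the replicates measure. Of the 42 libraries, 37 had their closest library by Ighv shares in their own group, and 39 by Igkv shares. For the V segments of T cell receptors, which are rearranged in T cells in the same way, the number was 8. The Morisita-Horn overlap of segment shares, which is 1 for equal shares and 0 for no shared segment, had a median of 0.839 within groups and 0.374 between groups for Ighv, and of 0.882 and 0.534 for Igkv (819 pairs between groups). Corrected for the number of reads, the medians between groups were 0.405 and 0.566. In Ctrl ZT8, ZT12, ZT16 and ZT24 the lowest Ighv overlap between libraries of 1 group was 0.993. By chi-square tests of counts at p under 0.05, the libraries of a group differed by more than counting error over all genes in 42 of 42 pairs. Over Ighv reads alone 11 of 42 pairs did not, over Igkv reads 11 of 42 and over T cell receptor V reads 24 of 42. None of the Ighv or Igkv pairs without a difference lay in Ctrl ZT8, ZT12, ZT16 or ZT24, where V reads were many. A test on few reads detects less, so these counts do not tell how alike the libraries of a group were. Chi-square over its degrees of freedom, near 1 for counting error alone, gives the size of a difference. In Ctrl ZT8, ZT12, ZT16 and ZT24 it was 1.96 to 3.14 for Ighv, 2.29 to 7.68 for Igkv and 3.81 to 7.98 over all genes. This ratio also rises with the number of reads per gene. Each library was counted as 1 sample. P-values here measure the spread between these libraries, and whether the libraries of a group share animals cannot be told from the labels.

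**Figure D1:**
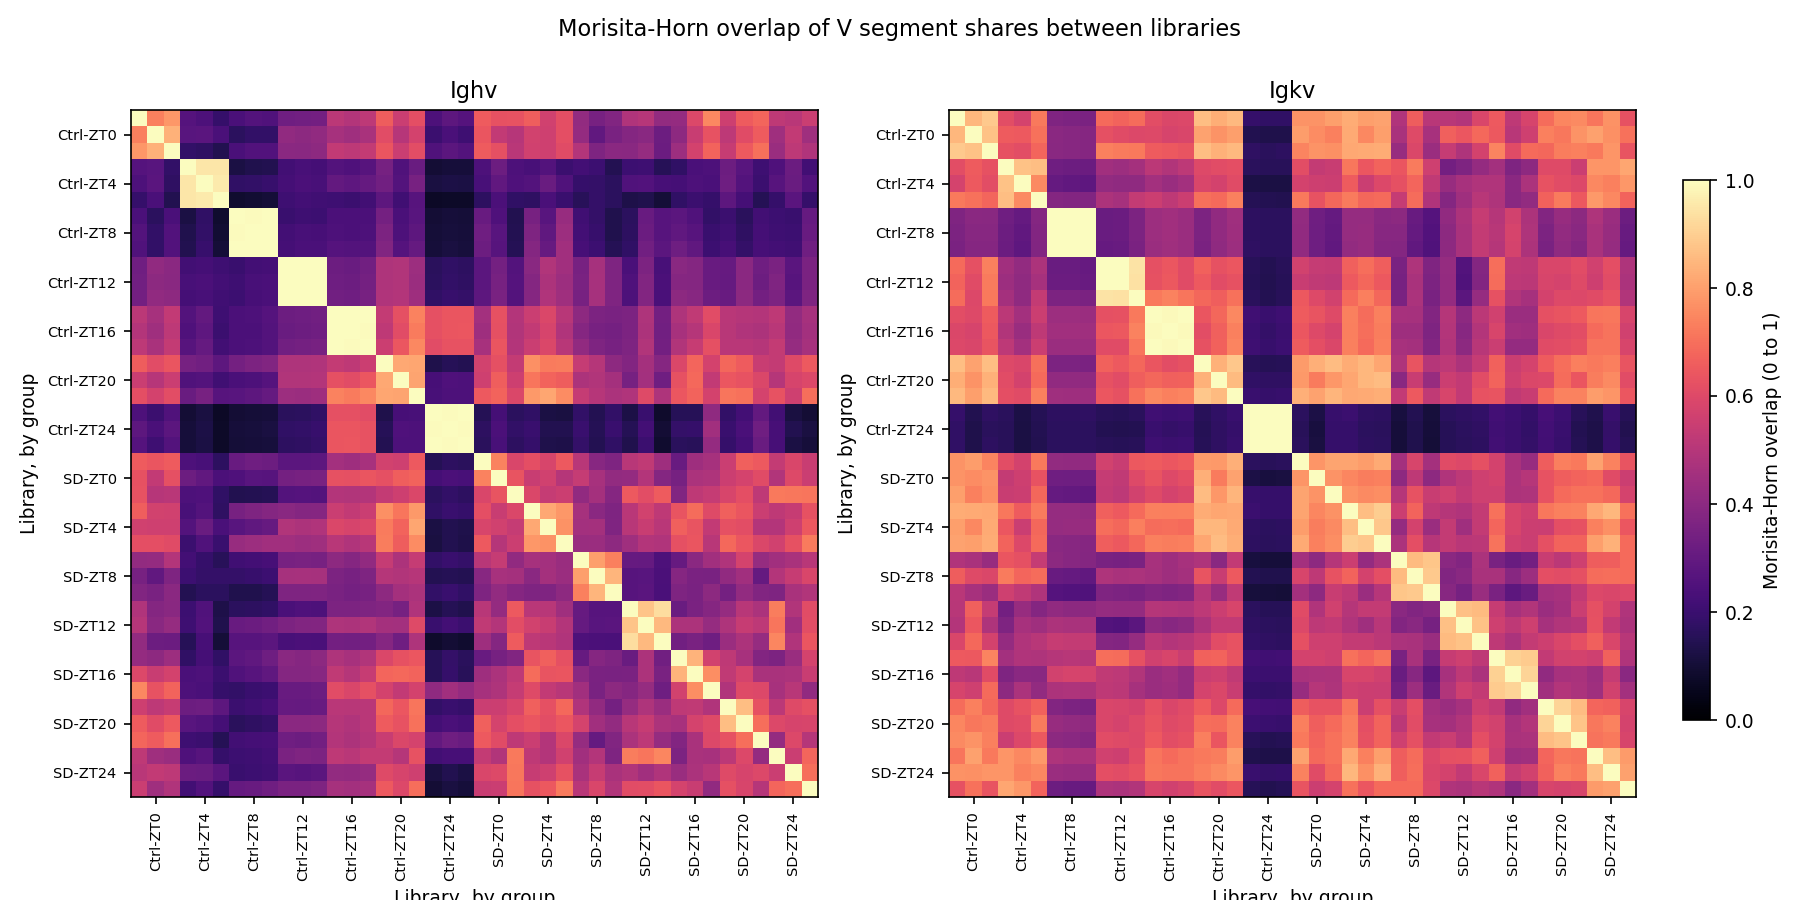
Morisita-Horn overlap of V segment shares for every pair of the 42 libraries (rows and columns, 3 libraries per group in group order), with Ighv on the left and Igkv on the right. Bright blocks of 3 by 3 on the diagonal are groups, brightest at Ctrl ZT8, ZT12, ZT16 and ZT24, and Ctrl ZT24 is dark against nearly all other groups for Igkv.

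Levels of V segments were high in 4 Ctrl groups. The summed FPKM (fragments per kilobase of gene, scaled by library) of all segments was 2056 ± 5.0 (SD, n = 3) at Ctrl ZT8. It was 3191 ± 46.1 by ZT12 and 5465 ± 254 by ZT16, and stood at 694.5 ± 12.8 at ZT24. In the other Ctrl groups it was 109.0 ± 3.4 at ZT0, 101.6 ± 5.8 at ZT4 and 85.6 ± 19.8 at ZT20. Ctrl ZT0 and Ctrl ZT24 fall at the same clock hour and still differed. SD groups stayed between 37.4 ± 0.88 (ZT24) and 77.1 ± 0.84 (ZT12). Of the 381538 V reads in all libraries, 94.4% came from those 4 Ctrl groups. Of the 211 segments with a read, 121 had their highest group mean at Ctrl ZT16, 51 at Ctrl ZT12, 20 at Ctrl ZT8 and 7 at Ctrl ZT24. The others were highest at SD ZT20 (4), Ctrl ZT20 (3), Ctrl ZT0 (2), SD ZT24 (2) and SD ZT12 (1).

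**Figure D2:**
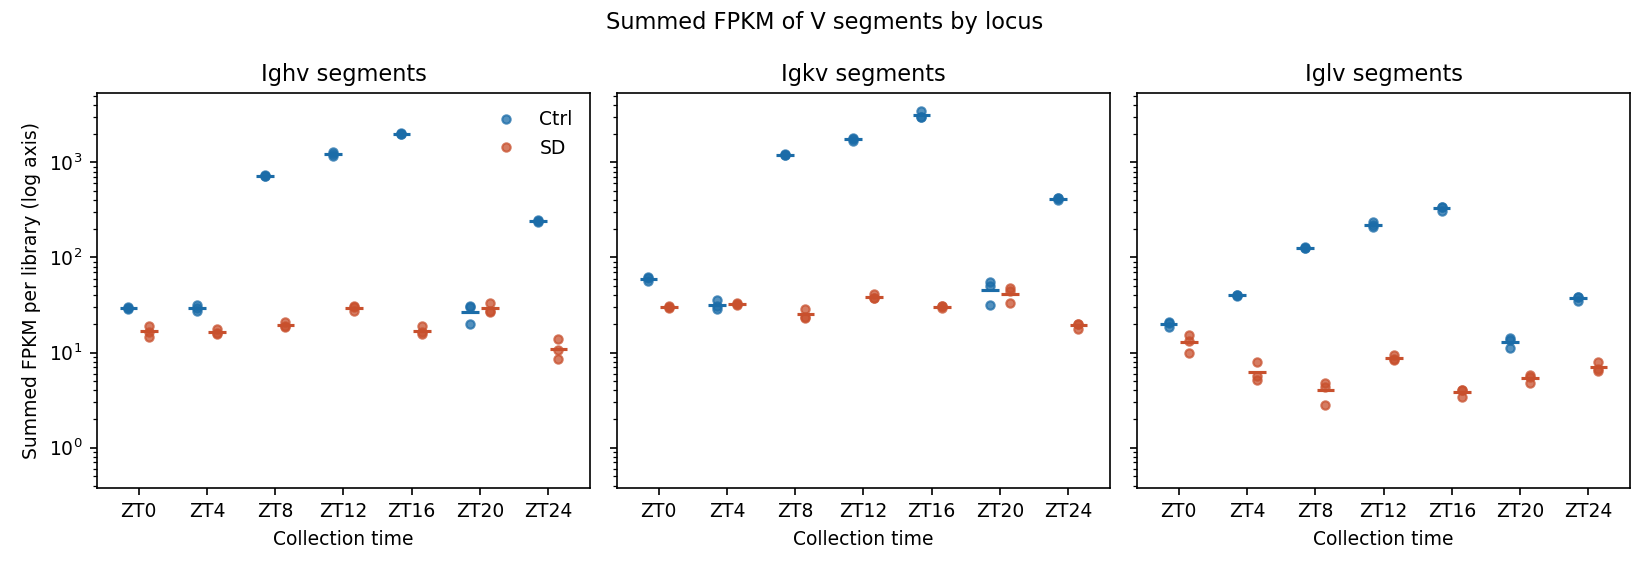
Summed FPKM of Ighv, Igkv and Iglv segments in each of the 42 libraries (points, log axis) by collection time, with group means as bars, in Ctrl (blue) and SD (orange). Ctrl means are 1997 (Ighv), 3140 (Igkv) and 327 (Iglv) at ZT16, while the SD group means are at most 41.8 in each locus.

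The contrast between conditions was of one order at ZT0 and ZT4 and of another at ZT8 to ZT16. Ctrl stood above SD by 1.82-fold at ZT0 and 1.83-fold at ZT4 in summed FPKM, by 42.03-fold at ZT8, 41.4-fold at ZT12, 106-fold at ZT16 and 18.6-fold at ZT24, with no overlap between the 3 Ctrl and 3 SD libraries. At ZT20 the libraries of the conditions overlapped (1.12-fold). Heavy and kappa segments differed at ZT4: Ighv libraries were 27.6, 29.5 and 31.8 in Ctrl against 15.7, 16.2 and 17.6 in SD, and Igkv libraries 28.7, 31.3 and 35.3 against 32.0, 32.5 and 33.5. The Igkv libraries of that time therefore overlapped and the Ighv libraries did not. The Iglv sums at ZT4 were 40.2 ± 0.45 FPKM in Ctrl and 6.21 ± 1.5 in SD, within totals of 101.6 and 55.5. The contrast of the totals at ZT4 was thus not shared by all loci. The summed level of lambda segments was lower in SD at 7 of 7 times without overlap, from 1.56-fold at ZT0 to 85.2-fold at ZT16. At ZT20, the time at which Ighv and Igkv overlapped, the Iglv sums were 13.02 ± 1.6 and 5.38 ± 0.55 FPKM for Ctrl and SD.

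Summed levels of constant region (C) genes were highest in the same Ctrl groups as the V segments, but the contrasts were not the same. Ctrl stood above SD in C genes by 7.84-fold at ZT24. At ZT20 the C sums were 263 and 185 FPKM in Ctrl and SD without overlap, where V segments overlapped. The J gene sums overlapped at ZT0 and ZT4, where the V sums did not. The ratio of V to C reads differed between groups as well. There were 19.2 to 21.1 V reads per 100 C reads in Ctrl ZT8, ZT12, ZT16 and ZT24, and 8.18 to 13.3 in the other 10 groups. All 11 tested C genes and all 12 tested J genes were lower in SD on average (limma, medians log2 -2.07 and -1.83), where 35.3% of all tested genes were lower.

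For the test of single segments, a segment had to reach a mean of 0.5 FPKM over the 42 libraries. This kept 137 segments (64 Ighv, 70 Igkv and 3 Iglv) and left out 81. Over the 30 libraries outside the 4 high Ctrl groups, 102 of the 137 had a mean under 0.5 FPKM, so most segments passed through the groups in which they were high, and the counts that follow describe them and support nothing further. Differences are on the log2(FPKM + 1) scale, SD minus Ctrl, and a segment was called at an adjusted p under 0.05 over 16962 genes. Most named segments were picked by their level in a group or over all libraries, or by the size of the tested difference. Their p-values are not independent of that choice, so they too describe these segments and support nothing further.

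Averaged over the 7 times, 137 of 137 tested segments were lower in SD and 0 higher, where 35.3% of all tested genes were lower and 34.6% higher. The median difference was -1.37 against -0.0033 over all genes. The largest averaged falls were those of Iglv1 (log2 -3.49 ± 0.070 SE, lower at 7 of 7 times, adjusted p = 5.02e-29), Igkv1-117 (-3.29), Ighv1-64 (-3.03), Igkv10-96 (-2.96) and Igkv17-121 (-2.93), the last 4 of them with a lower mean in SD at 6, 6, 5 and 6 times. With the 14 group means as units in place of libraries, 11 of 137 segments were lower and 0 higher, against 7.79% and 9.16% of all genes. The share of lower segments in that fit was thus near the share of all genes. At an unadjusted limma p under 0.05, 0 segments were higher in either of these fits and 0 at ZT16, and 84 were lower over the group means. The shares of all genes at an unadjusted p are not given, so these counts are descriptions only. Iglv1 (adjusted p = 0.0167), Iglv3 (0.0162), Ighv14-3 (0.0310) and Ighv1-26 (0.0476) were the named segments among the 11 called lower over the group means. Without the times ZT8, ZT12, ZT16 and ZT24, 27 segments were lower and 4 higher, against 27.5% and 27.8% of all genes. That fit called none of Igkv1-117 (log2 -0.21, adjusted p = 0.0528), Ighv1-64 (-0.12, 0.379), Igkv10-96 (-0.066, 0.749) and Igkv17-121 (-0.014, 0.948). With group means as units their adjusted p-values were 0.0542, 0.0730, 0.0652 and 0.0851.

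Counts at single times followed the levels. At ZT0, 25 of 137 segments were lower and 1 higher (19.7% and 18% of all genes). At ZT4, 14 were lower and 8 higher (20.1% and 19.2%). At ZT8, 116 were lower and 2 higher (28.9% and 27.1%), at ZT12, 119 and 1 (24.4% and 24.4%), and at ZT16, 134 and 0 (27.1% and 29.1%). At ZT20, 14 were lower and 17 higher (28.4% and 33%), and at ZT24, 93 and 2 (22.3% and 24.4%). At ZT0, ZT4 and ZT20 the shares of segments lower or higher were thus near those of all genes or under them. The median difference was -0.17 at ZT0, -0.00020 at ZT4, -1.28 at ZT8, -2.93 at ZT12, -3.69 at ZT16, -0.045 at ZT20 and -0.77 at ZT24.

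**Figure D3:**
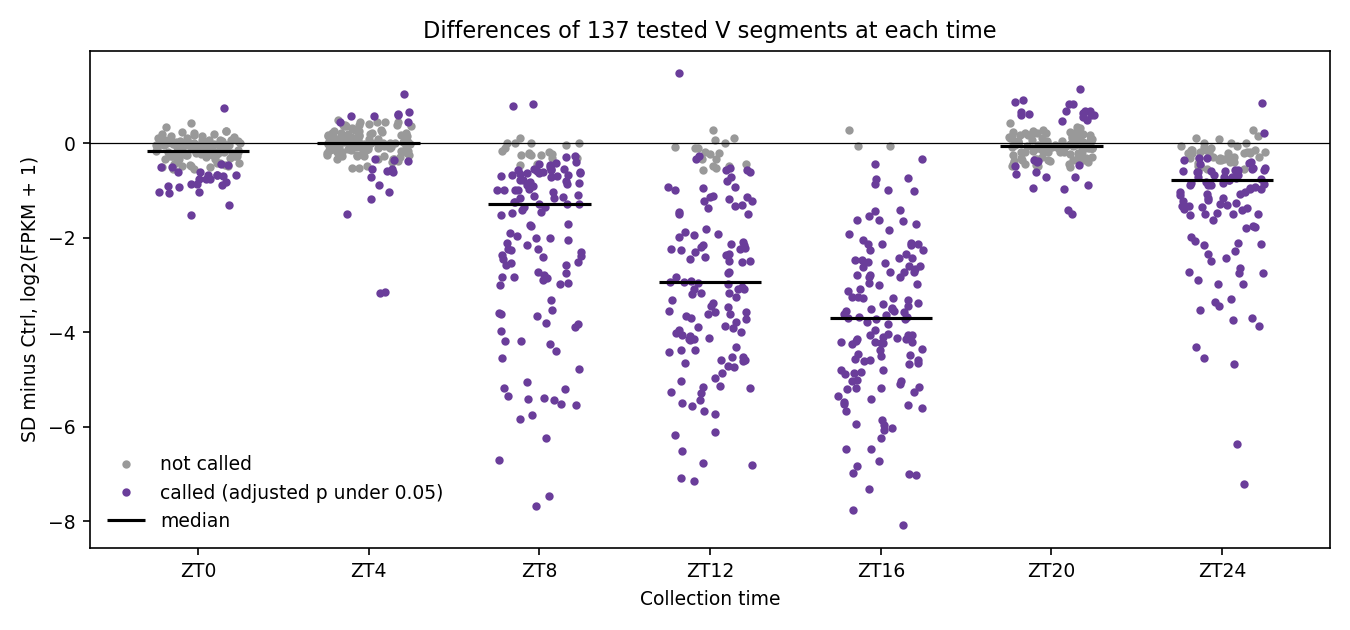
SD minus Ctrl on the log2(FPKM + 1) scale for the 137 tested V segments at each time (1 point per segment, purple where called, grey where not, black bar the median). The medians lie near 0 at ZT4 and ZT20 and at -0.17 at ZT0, with single segments down to -3.16 at ZT4, and the points spread down to log2 -8.08 at ZT16.

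The interaction of condition and time was called for 137 of 137 segments (81.7% of all genes), a change over time within Ctrl for 137 (78.7%) and a change over time within SD for 66 (80.8%). Each time of a condition was a single group, so time cannot be told apart from other differences between the groups. Only 3 times (ZT0, ZT4 and ZT20) remain when ZT8, ZT12, ZT16 and ZT24 are left out, and then 34 segments were called for the interaction (56.7% of all genes), 38 within Ctrl (41%) and 34 within SD (59.9%).

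Among Ighv segments, 3 led the 4 high Ctrl groups. Ighv5-6, a segment of the Ighv5 family, stood at 190, 179 and 178 FPKM in the Ctrl libraries at ZT8 and at 37.9 to 40.6 in the next highest group, Ctrl ZT16. It held 26.2%, 23.9% and 24.3% of the Ighv reads of the ZT8 libraries. Against SD, with 0 to 0.106 FPKM at that time, its difference was log2 -7.47 ± 0.23 (adjusted p = 2.36e-23).

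Ighv5-16, of the same family, stood at 191, 178 and 192 FPKM at Ctrl ZT12, with 16.1%, 15.8% and 15.6% of Ighv reads, and at 9.31 to 17.6 in Ctrl ZT8 and ZT16. Its difference at ZT12 was log2 -7.15 ± 0.16 (adjusted p = 1.45e-26), the largest fall of that time. The libraries of no other group came near these values.

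Ighv1-64, a segment of the large Ighv1 family, led 2 groups. It stood at 306, 306 and 295 FPKM in Ctrl ZT16 (16.7%, 17.0% and 16.3% of Ighv reads) and at 97.5, 90.3 and 94.8 in Ctrl ZT24 (43.0%, 40.4% and 41.1%). Its level was higher at ZT16, and its share was higher at ZT24. In SD it was between 0.0938 and 1.16 FPKM at ZT16 and between 0 and 0.424 at ZT24, and the differences were log2 -7.75 ± 0.20 (adjusted p = 2.35e-25) and -6.36 ± 0.20 (adjusted p = 1.27e-22).

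Ighv14-3 led a group whose total was low. At Ctrl ZT4 it stood at 7.65, 8.93 and 8.88 FPKM and held 27.8%, 30.1% and 34.0% of the Ighv reads (84, 95 and 96 reads). Of the SD libraries at ZT4, 2 had no read of it and the third was at 0.183 FPKM. The difference of log2 -3.16 ± 0.17 (adjusted p = 2.11e-16) was the largest fall at ZT4. Leading shares of this size were thus also found in a group in which the summed level was not raised.

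In SD the leaders held means of 5.72% to 17.5% of the Ighv reads, the highest being Ighv1-22 at ZT12. It stood at 5.16, 4.26 and 6.44 FPKM (18.4%, 13.4% and 20.9% of Ighv reads) against 1.24, 2.32 and 0.491 in Ctrl, a rise of log2 1.48 ± 0.29 (adjusted p = 5.86e-05). Ighv1-52 led at SD ZT8, with 2.01, 2.25 and 2.71 FPKM (19, 21 and 24 reads) against 0.591, 1.25 and 0.782 in Ctrl (log2 0.84 ± 0.18, adjusted p = 0.000254). At Ctrl ZT12 the same segment was at 85.7, 85.3 and 87.1. Ighv7-1 rose in SD at ZT0 (0.774, 0.792 and 1.24 FPKM against 0.39, 0.0977 and 0) and at ZT24, where none of the Ctrl libraries had a read of it and the SD libraries were at 0.567, 0.767 and 1.13. These SD values of Ighv7-1 rest on few reads, 8, 8 and 13 at ZT0 and 6, 7 and 12 at ZT24. Ighv14-4 was the largest rise at ZT20, log2 1.15 ± 0.20, but its SD libraries were uneven at 2.43, 1.88 and 0.230 FPKM. Ighv1-81 led 3 SD groups, ZT4, ZT16 and ZT20, at means of 11.9%, 12.5% and 5.87% of the Ighv reads, as well as Ctrl ZT20 at 9.42%.

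Among kappa segments, 4 led the 4 high Ctrl groups. Igkv8-24 stood at 256, 254 and 257 FPKM at Ctrl ZT8 and held 20.7%, 20.8% and 21.03% of the Igkv reads. Its difference from SD, with 0.103 to 0.610 FPKM, was log2 -7.68 ± 0.22 (adjusted p = 3.69e-24), the largest fall at ZT8. The second segment there was Igkv8-21 of the same family, which stood at 134, 138 and 139 FPKM.

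Igkv4-57-1 stood at 160, 167 and 172 FPKM at Ctrl ZT24 and held 39.6%, 40.2% and 40.8% of the Igkv reads. It was at 38.0 to 48.3 FPKM at Ctrl ZT16 and at most 8.34 in each other group. At ZT24 the difference was log2 -7.21 ± 0.18 (adjusted p = 2.61e-25). Ighv1-64 and Igkv4-57-1 together gave Ctrl ZT24 the highest leading shares of the 14 groups in both loci.

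Igkv1-117 had the highest mean FPKM of all segments (59.3 over the 42 libraries) and was read in each library. At Ctrl ZT16 it stood at 414, 551 and 421 FPKM (14.9%, 17.4% and 15.4% of Igkv reads). At ZT4 it was higher in SD, at 3.64, 4.26 and 3.96 against 1.89, 1.02 and 1.37, a rise of log2 1.04 ± 0.18 (adjusted p = 1.89e-05) and the largest of that time. Its near copy Igkv1-110 led Ctrl ZT12 with 309, 311 and 154 FPKM. In replicate 3 of that group its share was 9.80% of the Igkv reads, against 18.3% and 18.8% in the others, while Igkv1-117 held 13.2%, 13.3% and 14.2%. Replicate 3 therefore had Igkv1-117 as its leader, and the libraries of the group did not share 1 leader in that locus.

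Igkv17-121 had the largest fall at ZT16, log2 -8.08 ± 0.25 (adjusted p = 5.04e-23), from 375, 445 and 373 FPKM in Ctrl to 0.31, 0.209 and 0.998 in SD. At ZT0 the largest fall was that of Igkv1-110, log2 -1.52 ± 0.23 (adjusted p = 2.37e-06), from 4.33, 4.95 and 5.70 FPKM to 0.876, 1.08 and 1.30. In SD, Igkv8-21 led ZT16 with 4.42, 5.47 and 4.65 FPKM (14.4%, 17.7% and 16.1% of Igkv reads). The Ctrl libraries of that time were at 3.52, 4.55 and 3.41, and no difference was called (log2 0.28, adjusted p = 0.156), at a time when 69 of 70 tested Igkv segments were lower in SD. Igkv9-120 led SD ZT12 (7.49, 5.27 and 4.23 FPKM), where it was lower than in Ctrl (log2 -1.36, adjusted p = 4.91e-05), and Igkv4-57 led SD ZT8 (3.58, 2.45 and 3.82), where no difference was called (log2 -0.25, adjusted p = 0.441).

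**Figure D4:**
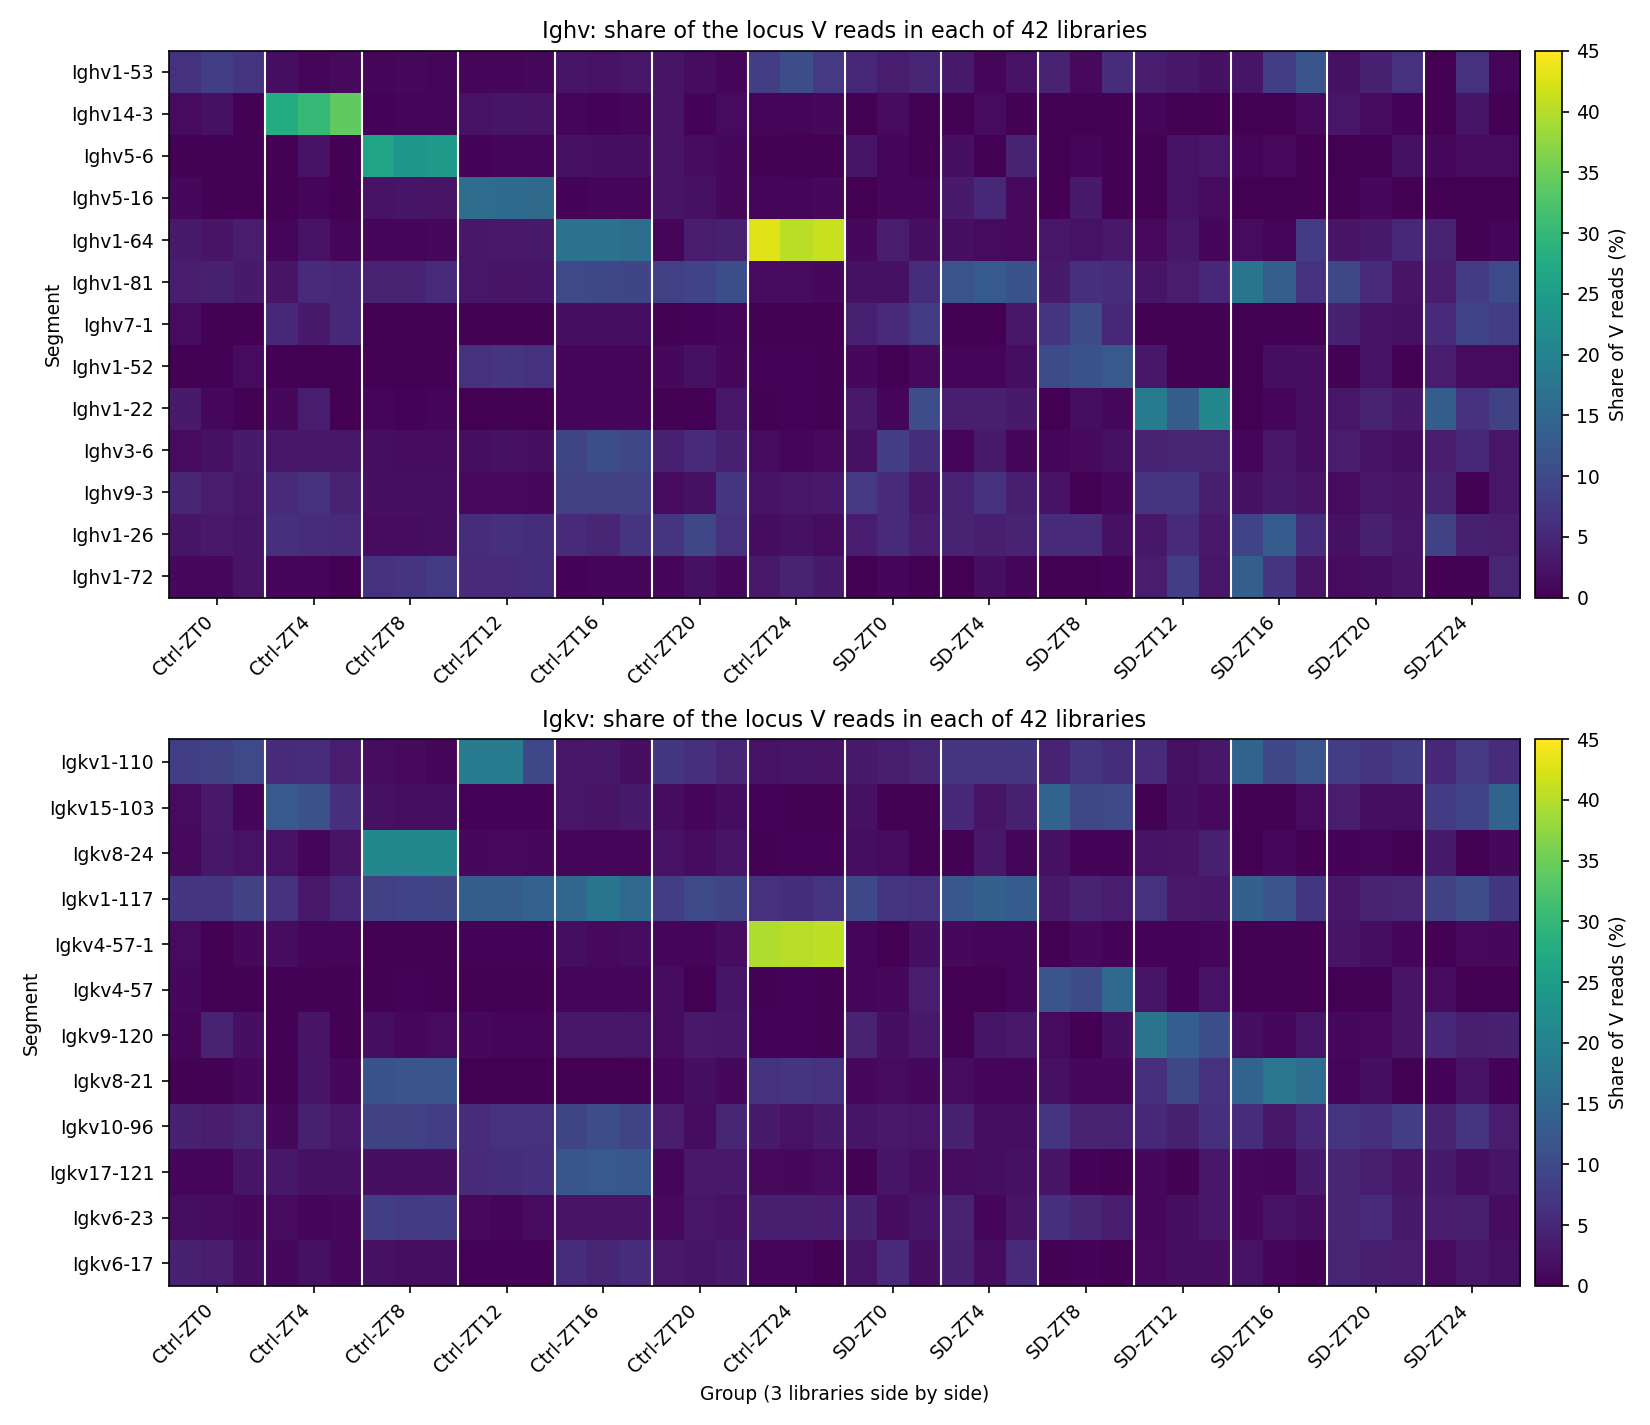
Share of the Ighv reads (above) and Igkv reads (below) held by leading segments, as colour from 0 to 45%, in each of the 42 libraries, 3 per group. Ighv1-64 and Igkv4-57-1 fill the Ctrl ZT24 libraries at about 41.5% and 40.2% on average, and a leader keeps about the same share in the 3 libraries of most Ctrl groups.

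Over the 14 groups 9 Ighv and 8 Igkv segments led a group by mean share of reads. The 3 libraries had the same leader in 8 groups for Ighv and in 9 for Igkv. By FPKM in place of reads the leader of SD ZT0 was Ighv9-3 in place of Ighv7-1, where no segment held more than 5.72% of Ighv reads on average. The Ighv1 family, the largest with 53 segments, held between 38.3% (Ctrl ZT4) and 76.5% (Ctrl ZT24) of Ighv reads. Ighv14 held 31.4% at Ctrl ZT4, Ighv5 28.1% at Ctrl ZT8, Igkv4 43.4% at Ctrl ZT24, Igkv8 33.3% at Ctrl ZT8 and Igkv1 34.4% at SD ZT16. The 56 Ighv segments nearest to the D segments held 66.6% ± 3.8 of Ighv reads at Ctrl ZT4, 23.8% ± 1.7 at Ctrl ZT24 and 28.4% to 48.7% in the other groups.

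Lambda segments held a varying share of the light chain V reads. It was 57.2% ± 2.4 at Ctrl ZT4, above kappa, and 8.49% ± 0.31 at Ctrl ZT24, the lowest. It was 9.81% to 11.6% in the other 3 high Ctrl groups and 11.4% to 30.2% in SD. Ctrl ZT0 (25.6% ± 0.27) and Ctrl ZT20 (23.2% ± 3.4) lay within the range of the SD groups. The share at Ctrl ZT4 came from Iglv1, which stood at 34.2, 35.3 and 33.5 FPKM against 2.41, 4.02 and 2.67 in SD (log2 -3.15 ± 0.18, adjusted p = 3.63e-15) and held 85.7% ± 1.7 of lambda reads. The Iglv1 level was 254, 265 and 238 FPKM at Ctrl ZT16. Iglv3 had the largest fall at ZT20, from 5.42, 4.96 and 4.30 FPKM to 0.783, 0.693 and 2.01 (log2 -1.49 ± 0.23, adjusted p = 1.44e-06). At SD ZT24 Iglv3 had the higher mean share, 48.0%, with Iglv1 at 36.3%. Iglv2 was lower on average (log2 -1.41) and stood at 3.77, 3.59 and 3.78 FPKM in Ctrl against 4.32, 2.75 and 4.83 in SD at ZT0, where the libraries overlapped. Of the 3 Iglv segments, 2 were called lower at ZT0, ZT4 and ZT20, and all 3 at the other times.

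Breadth was measured in several ways, all as descriptions with no test. More segments had a read where reads were many: 96.7 Ighv segments on average at Ctrl ZT16, 84.3 at Ctrl ZT8 and 37.7 to 54.3 in SD groups. These numbers follow depth, so the expected number of segments was computed for an equal draw of reads, 77 for Ighv and 189 for Igkv, the lowest library totals. For Ighv this was 22.7 ± 0.18 segments at Ctrl ZT24 and 23.0 ± 0.15 at Ctrl ZT8, the lowest of the 14 groups, and 38.7 ± 0.83 at Ctrl ZT0, the highest. SD groups lay between 28.8 ± 1.1 (ZT8) and 36.7 ± 2.4 (ZT0). For Igkv it was 31.6 ± 0.55 at Ctrl ZT8, 34.9 ± 0.55 at Ctrl ZT24 and 56.6 ± 2.4 at SD ZT0. The group with the most Ighv reads, Ctrl ZT16, was at 29.4 ± 0.16 for Ighv, in the range of SD.

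At matched times the difference in breadth went one way at some times and not at others. For Ighv the SD libraries were above the Ctrl libraries without overlap at ZT4, ZT8 and ZT24 and overlapped with them at ZT0, ZT12, ZT16 and ZT20. At ZT24 the values were 22.7 ± 0.18 in Ctrl and 32.4 ± 2.1 in SD. At ZT16 they were 29.4 ± 0.16 and 29.4 ± 2.1. For Igkv, SD was above Ctrl at ZT8, ZT12 and ZT24, below at ZT16 (39.3 ± 1.8 against 43.4 ± 0.29) and ZT20 (50.3 ± 1.3 against 54.1 ± 1.3), and overlapped at ZT0 and ZT4. Ctrl ZT4, with a low level, was at 29.3 ± 1.5 for Ighv, close to Ctrl ZT16 with the highest level.

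The effective number of segments, the inverse of the chance that 2 reads share a segment, gives more weight to leaders. It was 5.19 ± 0.24 for Ighv and 5.53 ± 0.14 for Igkv at Ctrl ZT24, 9.82 ± 0.49 and 11.1 ± 0.12 at Ctrl ZT8, and 15.4 ± 0.44 and 15.8 ± 1.2 at Ctrl ZT16. It was 38.8 ± 1.8 and 30.0 ± 2.1 at Ctrl ZT0. At Ctrl ZT4 the loci parted, with 9.18 ± 1.5 for Ighv and 29.5 ± 6.9 for Igkv. The Shannon effective number, which weighs rare segments more, was computed on all reads of a library, so it also follows depth. It had the SD libraries below Ctrl without overlap for Ighv at ZT0 (36.9 against 44.7), ZT12 (29.1 against 31.7) and ZT16 (24.3 against 29.04). At ZT4, ZT8 and ZT24 the SD libraries were above. Ighv reads per library were 20131 to 20939 at Ctrl ZT16 and 155 to 183 at SD ZT16. In the equal draw of 77 reads the conditions overlapped at ZT0, ZT12 and ZT16. By the inverse chance, SD groups held 17.9 to 35.0 for Ighv and 12.97 to 39.8 for Igkv. The 10 leading Ighv segments held 77.9% of reads at Ctrl ZT24 and 42.9% at Ctrl ZT0. For T cell receptor V segments the expected number in 57 reads stayed between 22.9 and 26.8 in all 14 groups.

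**Figure D5:**
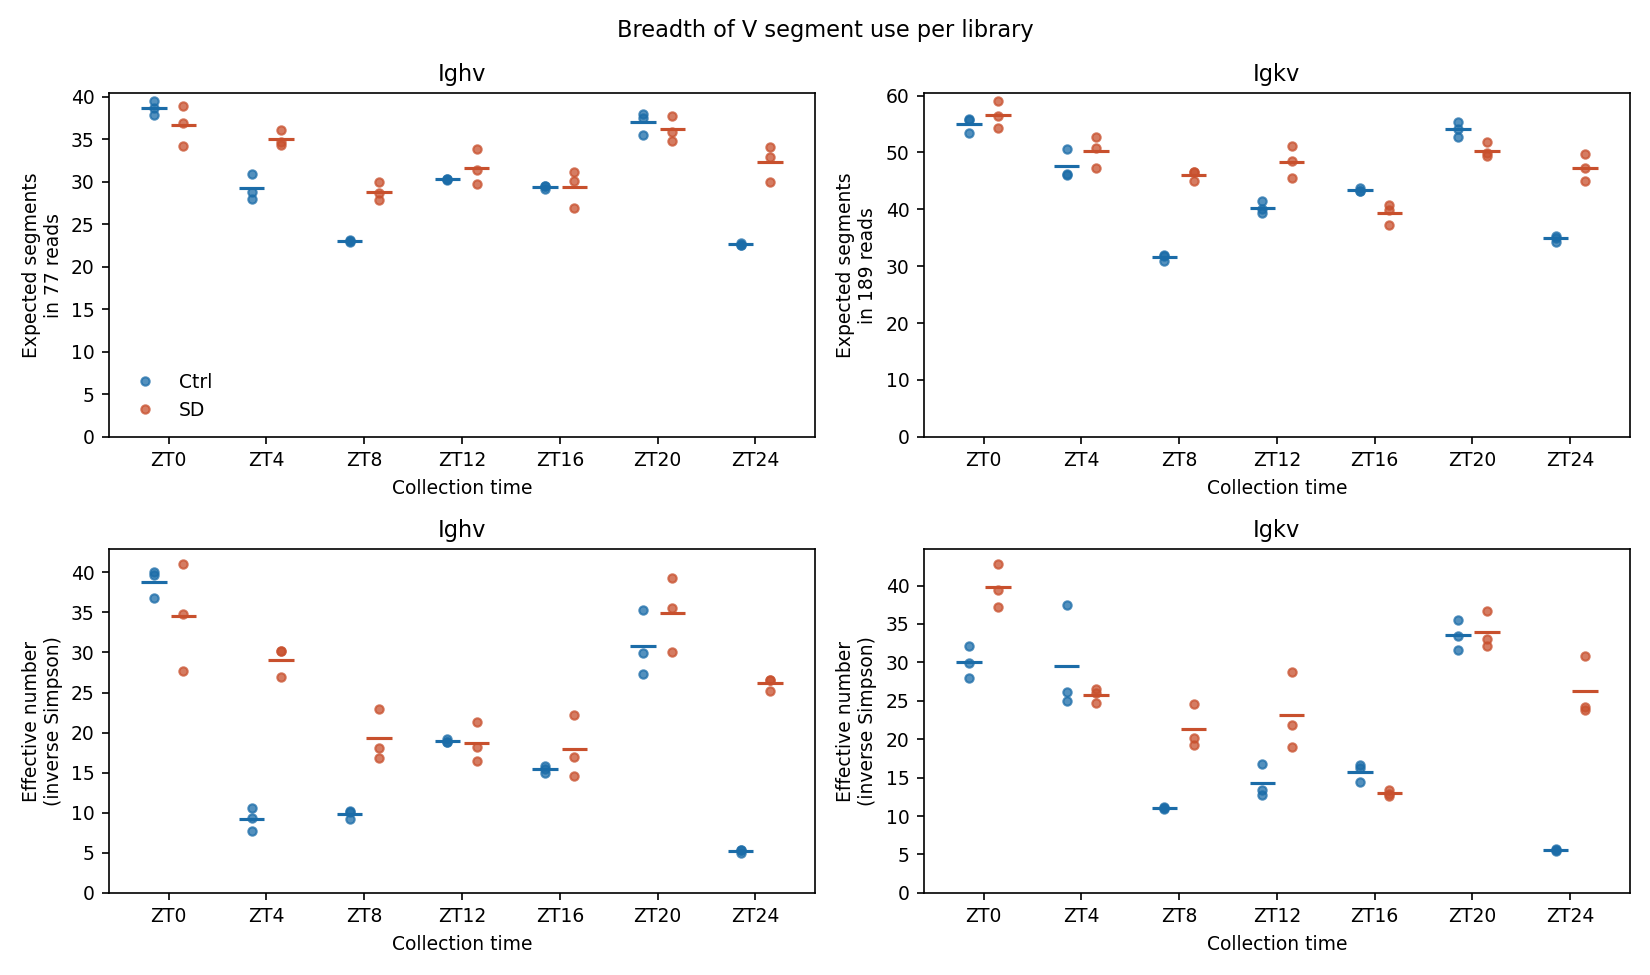
Breadth of V segment use in each library (points) and group (bars), given by the expected segments in 77 Ighv or 189 Igkv reads (above) and as the effective number (below), in Ctrl (blue) and SD (orange). Ctrl ZT8 and ZT24 have the lowest expected numbers, and Ctrl ZT24 has effective numbers of 5.19 and 5.53.

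Markers of B lineage cells were given beside the segments, and not all of the lists moved with them. The 14 plasma cell genes summed to 629 to 634 FPKM at Ctrl ZT8, 660 to 680 at ZT12, 967 to 1010 at ZT16 and 390 to 405 at ZT24, and to 240 to 320 in the libraries of the other groups. Their fall in SD was called for 14 of 14 (median log2 -0.40). Mzb1, a chaperone of antibody assembly, was at 134 ± 10 FPKM at Ctrl ZT16 and 4.47 ± 0.67 at SD ZT16. Xbp1, Sdc1 and Txndc5 were at 90.7, 70.0 and 36.8 FPKM in SD at the same time, and Sdc1 was at 55.8 in Ctrl.

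The 14 B cell genes were called lower in SD for 14 of 14 (median -1.18) and summed to 398 to 425 FPKM at Ctrl ZT16 and 42.3 to 45.2 at SD ZT16. The B cell sum did not rank the groups as the V segments did: at Ctrl ZT24 it was 169 to 174 and at Ctrl ZT0 160.5 to 166, where the summed V levels were 694.5 and 109.0. The 8 T cell genes were lower for 8 of 8 (median -0.72). Of 6 tested germinal centre genes 4 were lower and 2, Bcl6 and Fas, higher. The sum of the 7 listed genes had group medians of 37.5 to 57.6 FPKM in Ctrl and 50.7 to 87.5 in SD. By group medians it was higher in SD at each time but ZT16. This sum went against the direction of 4 of the 6 tested genes, and only Bcl6 and Fas were called higher. It therefore does not describe the list as a whole. Of the 6 precursor genes 2 were tested, and the list summed to at most 42.7 FPKM, at Ctrl ZT8. Nearly all of it was Vpreb3, with group means of 14.8 to 40.8 FPKM, which was lower in SD on average (log2 -0.13), while Vpreb1 (log2 -0.084) was not called. Rag1, Rag2, Dntt and Igll1, which carry out or accompany recombination, had group means of at most 0.554 FPKM, and Rag2 was at 0 in 18 libraries.

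Of 13 tested recombination and diversification genes 10 were lower and 0 higher in SD (1 higher at an unadjusted limma p under 0.05; median -0.16), and of 11 factors that act on V promoters and enhancers 10 were lower and 1, Pou2f1, higher (median -0.25). Pou2af1, the B cell coactivator of octamer promoters, changed by log2 -1.45 and Spib by -1.72. The 6 mucous airway genes were lower for 6 of 6 (median -1.83) and summed to 691 to 750 FPKM at Ctrl ZT8, 584 to 589 at ZT12, 182 to 194 at ZT16 and 264 to 286 at ZT24. They also stood at 133 to 139 at Ctrl ZT4 and 169 to 177 at SD ZT8, and at 4.81 to 76.5 in the other groups. Of 4 tested lymph node or thymus stroma genes 3 were lower. Their sum reached 90.2 to 120 at Ctrl ZT16, with Cxcl13, the chemokine that draws B cells, at 68.6 ± 8.8 FPKM, and Ccl19 was at 0 in 38 of 42 libraries. The sum was uneven within groups, at 4.43, 44.9 and 55.2 in the SD ZT4 libraries and 3.81, 4.50 and 41.3 in the Ctrl ZT20 libraries. The part of these cell types in the V segment levels was not tested. The 5 epithelial and 3 endothelial genes were higher in SD (5 of 5 and 3 of 3, medians 0.32 and 0.19).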

How the data were processed

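Total RNA from lungs was sequenced in 14 groups of 3 libraries (2 conditions, 7 times). The deposited values are FPKM made by the authors. HISAT2 2.0.5, featureCounts 1.5.0-p3 and genome build mm10 are named in the submitters' processing notes, and how reads matching several genes were counted is not given in the sources used here. FPKM values fell on whole multiples of 1 read's value, within 0.1 read, for 99.97% to 100% of values. Reads recovered in this way, 25285525 to 29790252 per library, served for shares and breadth.

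Differences were tested with limma 3.58.1 (R 4.3.3) on log2(FPKM + 1), with 14 group means, a trend in the prior variance, a mean FPKM of at least 0.5 (16962 genes) and Benjamini-Hochberg adjustment over all of them at 0.05. The self-test on simulated data used the same fit. Named segments were the leading Ighv and Igkv segment of each group by mean FPKM, the 8 Ighv and 8 Igkv segments with the highest mean FPKM over all libraries, every Iglv segment, the 5 largest averaged rises and falls among those called, and the largest called rise and fall at each time. Members and lists were chosen with earlier results of these data known. Breadth used the lowest library total (77, 189 and 57 reads for Ighv, Igkv and T cell receptor segments), since a multiple of 100 would have been 0 for Ighv. Shares, breadth and overlap (Python 3.11.15, pandas 2.3.3, numpy 2.4.6, scipy 1.17.1, matplotlib 3.10.9) are descriptions with no p. Alternatives were another pseudocount, other filters, scaling by total reads, the replicate number as a block, group means as units, and leaving out libraries or times. A planned count test on recovered reads is not reported, because FPKM values are not counts. Same-numbered libraries did not deviate together over the tested genes (mean r 0.0018, lowest -0.14), so no pairing by number was seen. A pairing confined to some genes or groups need not show in this mean.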

Additional observations from a re-analysis of the deposited data

Results flagged for a closer look

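The difference between conditions varied between the collection times for 137 of 137 tested segments, by the test of the interaction itself (limma), where 81.7% of all genes were called. Of the 137, 102 averaged under 0.5 FPKM outside the high Ctrl groups. Without ZT8, ZT12, ZT16 and ZT24, 34 segments were called, against 56.7% of all genes. Each time of a condition was a single group of 3 libraries, so time cannot be told apart from other differences between the groups. For 10 named segments the called differences went both ways, as log2(FPKM + 1), SD minus Ctrl. Among them Ighv7-1, Igkv1-117, Ighv1-52, Ighv1-22 and Ighv14-4 were named as the largest called rise at a time. The number was thus partly set by the choice of named segments. The share of all genes with called differences both ways is not given, so the number is a description only. Ighv1-22 ranged from -3.82 to 1.48, Ighv14-4 from -3.0002 to 1.15 and Igkv1-117 from -6.82 to 1.04. Ighv7-1 ranged from -5.18 to 0.85, Ighv1-52 from -6.11 to 0.84 and Igkv10-96 from -7.02 to 0.68. Ighv1-53 ranged from -4.58 to 0.64, Igkv6-23 from -5.65 to 0.60, Igkv6-17 from -7.0008 to 0.58 and Ighv5-16 from -7.15 to 0.46. Groups of 3 libraries were too small for a test of single libraries.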

How the results depend on the processing

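Counts of segments by condition kept within 1.5 times of the reported ones except as follows. Pseudocount 0.1 gave 15 higher at ZT4, 1 at ZT8 and 1 at ZT24. Without a filter 4 were higher at ZT4 and 2 at ZT12. A mean of 2 FPKM, which tests fewer segments, left 89 lower on average, 88 lower at ZT16, 1 higher at ZT24, 89 for the interaction and 89 over time within Ctrl. Group means as units gave 11 lower. Without ZT8, ZT12, ZT16 and ZT24, 27 were lower and 4 higher, with 34 for the interaction, 38 within Ctrl and 34 within SD. At those remaining times the averaged sign turned for Ighv5-16 (0.00299), Ighv1-52 (0.016), Ighv1-22 (0.38), Igkv6-23 (0.35), Igkv6-17 (0.071), Iglv2 (0.014), Ighv7-1 (0.13) and Ighv14-4 (0.40). The cause was not tested. Of the averaged differences of named segments, 25 missed the threshold with group means as units. Leaving out 1 library gave 1 to 2 higher at ZT0, 4 to 9 at ZT4 and 1 to 2 at ZT24. With the replicate number as a block 137 segments were lower on average, and no count moved by over 1.5 times. Of 42 libraries 17 resembled their own number most.

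With families as units, expected numbers were 9.24 (Ctrl) and 9.76 (SD) for Ighv and 15.1 and 15.4 for Igkv. Shannon effective numbers were 4.38 and 4.64 for Ighv and 10.04 and 10.7 for Igkv. Within-group overlaps were 0.990 and 0.966 and between-group overlaps 0.955 and 0.810. At 0.5 of the reads, expected numbers were 20.1 and 22.4 (Ighv) and 33.0 and 37.0 (Igkv). With segments of at least 10 reads only, Shannon numbers were 15.1 and 3.99 (Ighv) and 17.8 and 7.59 (Igkv), so the order of conditions turned. SD libraries held 77 to 307 Ighv reads, so few of their segments could reach 10 reads. The order under this cut-off therefore follows depth and says nothing on breadth. Low read totals in SD groups limit all measures of breadth there.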
